A study of Mus musculus with 13 samples.

Results

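The genes described here are 34 ribosome biogenesis genes, chosen by name as factors that transcribe, modify, process or assemble ribosomal RNA and ribosomal subunits. All 34 were found by gene name in each of the 3 deposited count tables, among 22048 genes listed in every table, and all 34 passed the count filter in every comparison. RNA was sequenced in bulk from CD4 cells at 3 stages of regulatory T cell (Treg) life, obtained by magnetic enrichment and FACS, in 13 libraries. The mice were of the C57BL6/J strain and every one carried the Foxp3rfp reporter, which labels cells that express Foxp3. Wild-type (WT) animals were cRel+/+ and the others were cRel-/-, lacking c-Rel, a subunit of the transcription factor NF-kB encoded by Rel. There were 2 WT and 3 cRel-/- libraries of thymic pre-Tregs, 2 per genotype of thymic de novo Tregs, and 2 per genotype of splenic Tregs, which the labels call tTreg cells. The labels give no age, no animal for a library and no statement on whether the deletion was confined to any cell type, so p-values measure the spread between libraries, which may be technical. The sources used here do not give the surface markers that defined a pre-Treg.

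Ribosome production begins in the nucleolus, where RNA polymerase I transcribes a long precursor of the ribosomal RNAs. Small nucleolar ribonucleoproteins (snoRNPs) then guide methylation (box C/D) and pseudouridylation (box H/ACA) of that precursor, while processing factors cut and fold it into the small and large subunits. Lymphocytes raise this machinery when they are activated and grow, and the transcription factor Myc is a well-known regulator of many of its genes.

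The promoters of the members are shown for 4 genes because the results turn on Ncl and Dkc1, and because Nop2 and Rrn3 hold, upstream of the start, the E-box that Myc and its partners bind. Each line gives the 250 bases before the RefSeq transcript start (build GRCm38.p6), 5′ to 3′ on the strand of the gene, in lower case with motif matches in capitals. The motifs searched were the E-box CACGTG and the kappaB-type motif of NF-kB, both on either strand, the latter written as GGGA, any 2 bases and TTCC.
Ncl, chr1:86359456-86359705, minus strand: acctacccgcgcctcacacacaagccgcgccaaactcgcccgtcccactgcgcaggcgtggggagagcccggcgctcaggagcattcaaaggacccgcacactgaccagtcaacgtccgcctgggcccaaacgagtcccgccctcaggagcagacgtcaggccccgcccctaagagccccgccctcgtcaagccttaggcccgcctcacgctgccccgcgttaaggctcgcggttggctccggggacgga
Dkc1, chrX:75095604-75095853, plus strand: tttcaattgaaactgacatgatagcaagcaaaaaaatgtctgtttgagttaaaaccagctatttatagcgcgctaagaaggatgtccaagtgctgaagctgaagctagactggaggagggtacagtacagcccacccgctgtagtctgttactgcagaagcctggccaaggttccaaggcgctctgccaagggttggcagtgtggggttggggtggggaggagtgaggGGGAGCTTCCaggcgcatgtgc
Nop2, chr6:125131633-125131882, plus strand: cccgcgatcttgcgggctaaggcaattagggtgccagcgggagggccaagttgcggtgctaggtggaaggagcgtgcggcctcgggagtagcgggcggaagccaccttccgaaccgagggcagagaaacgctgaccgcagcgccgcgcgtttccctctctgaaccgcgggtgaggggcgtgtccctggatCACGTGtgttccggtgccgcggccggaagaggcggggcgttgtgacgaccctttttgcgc
Rrn3, chr16:13780449-13780698, plus strand: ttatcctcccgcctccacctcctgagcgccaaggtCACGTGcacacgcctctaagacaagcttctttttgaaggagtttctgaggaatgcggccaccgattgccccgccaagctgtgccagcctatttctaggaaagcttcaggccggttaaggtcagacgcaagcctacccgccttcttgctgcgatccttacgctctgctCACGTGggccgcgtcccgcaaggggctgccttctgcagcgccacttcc
The Nop2 E-box begins 60 bases before the start, the Rrn3 E-boxes begin 215 and 48 bases before it, and the Dkc1 kappaB-type match begins 22 bases before it. Of the members, 30 matched a promoter in the RefSeq table, and Bop1, Fbl, Npm1 and Rrp12 did not. In windows of 300 bases (250 before and 50 after the start), 7 of the 30 members held an E-box (23.3%, against 8.09% of 27025 genes with a window): Mybbp1a, Nop2, Pes1, Rrn3, Tsr1, Utp20 and Wdr43. The kappaB-type motif was in 2 of the 30 (6.67%, against 1.63% of genes), Dkc1 and Nat10. The members' windows were richer in CpG, with a median of 20 CpG dinucleotides over their 33 windows (some genes have several starts) against 7 over all windows, and a match is a description of letters only.

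Library totals lay between 13656304 and 29866696 counts in pre-Tregs, between 25122095 and 28235996 in de novo Tregs and between 32291272 and 35114430 in splenic Tregs. Levels are given below as CPM (a gene's counts relative to its library's scaled total) on a common scale over the 13 libraries. Rel was still read in the cRel-/- libraries: 104 and 99.6 CPM in WT against 54.9, 52.2 and 65.9 in cRel-/- pre-Tregs, 104 and 102 against 92.0 and 101 in de novo Tregs, and 47.2 and 56.6 against 43.4 and 46.1 in splenic Tregs. Its difference passed the test at no stage (adjusted p by edgeR = 0.552, 0.665 and 0.521), and counts summed over a gene do not check a deletion of part of it, so genotype is used as labelled. Foxp3 was low in pre-Tregs (19.8 to 101 CPM) and high in de novo (748 to 869 CPM) and splenic Tregs (682 to 921 CPM), and Cd4 (654 CPM or more) and Cd3e (789 CPM or more) were high in every library. In 1 library, cRel-/- pre-Treg replicate 1, all counts above 0 were even numbers, against 46.73 to 49.98% of them in the other 12. Replicate 2 of the cRel-/- pre-Tregs stood apart from its group in these genes, as described below. The 3 stages were deposited in separate tables, so stage and table cannot be told apart, and neither can spleen and splenic stage.

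The set mean, the mean over the 34 members of log2 CPM, was lower in cRel-/- than in WT libraries in both Foxp3-expressing stages and not in pre-Tregs. In de novo Tregs it was 6.56 and 6.51 in WT and 6.42 and 6.39 in cRel-/-, a difference of −0.13 on the log2 scale with no overlap. In splenic Tregs it was 6.65 and 6.66 in WT and 6.62 and 6.48 in cRel-/-, a difference of −0.11 with no overlap but with a wide gap between the cRel-/- libraries (−0.17 without replicate 1 and −0.04 without replicate 2). Pre-Tregs gave 6.41 and 6.43 in WT and 6.41, 6.63 and 6.51 in cRel-/-, and these groups overlapped. Without Npm1 and Ncl the set mean still differed by −0.112 in de novo and −0.095 in splenic Tregs. The median log2 CPM over the members differed by −0.01 in de novo and 0.02 in splenic Tregs. That median rests on the few genes of middle level and does not describe the change of a typical member. The median of the members' own fold changes, given below, was negative at both stages. In bulk libraries, fewer cells of a type and less RNA per cell cannot be told apart.

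**Figure D1:**
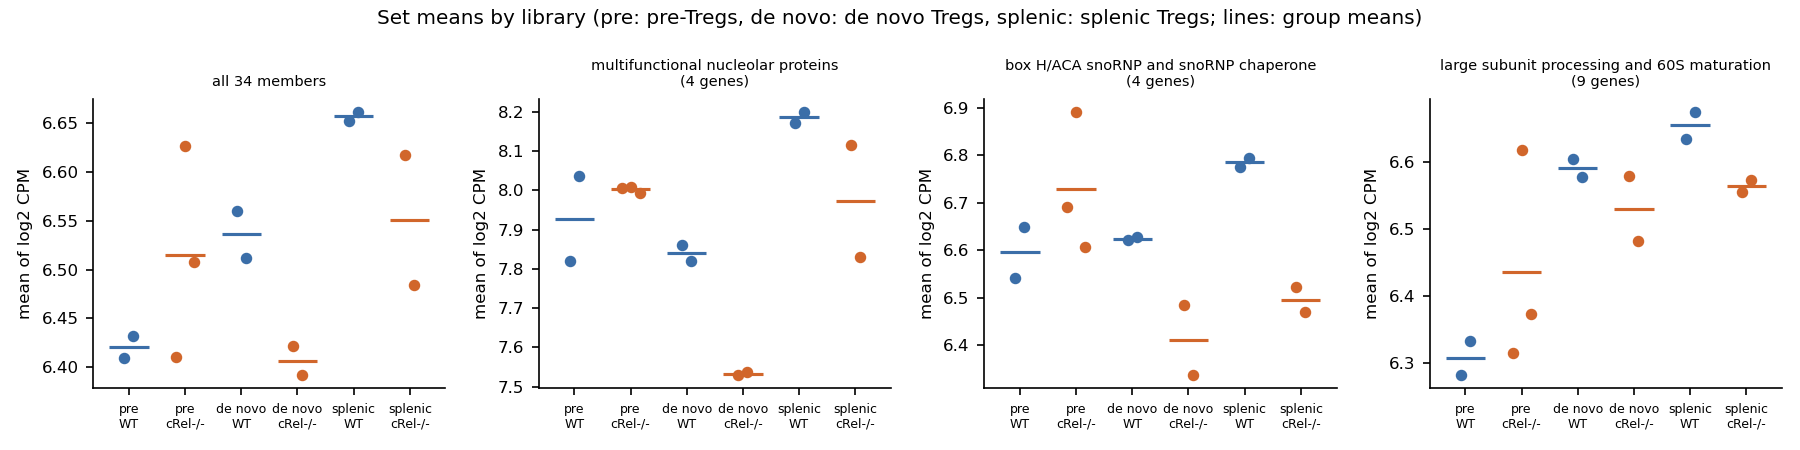
Mean of log2 CPM over all 34 members and over 3 role groups (vertical axes) in each of the 13 libraries, by stage and genotype, with WT in blue, cRel-/- in orange and lines at group means. For all members, de novo cRel-/- libraries lie at 6.39 and 6.42, below both WT libraries, while the pre-Treg groups overlap.

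Loss of c-Rel in de novo Tregs came with lower transcripts of nucleophosmin and nucleolin. A gene is said to rise, fall or be called when its Benjamini-Hochberg adjusted p in edgeR's quasi-likelihood test, taken over all genes tested, is under 0.05. By that rule 2 of the 34 members fell in de novo Tregs and 0 rose, against 3.54% of 11855 genes called lower and 2.92% called higher. Without regard to calls, 27 of the 34 log2 fold changes (cRel-/- over WT) were below 0, with a median of −0.13 against −0.00 and 50.7% below 0 over all genes.

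Among the multifunctional nucleolar proteins, Npm1 encodes nucleophosmin, an abundant nucleolar chaperone of ribosomal subunit assembly and export (ENSMUSG00000057113, chr11:33152287-33163206, GRCm38). Npm1 stood at 197 and 188 CPM in WT and 141 and 133 CPM in cRel-/- de novo Tregs. Both cRel-/- libraries were below both WT libraries, and Npm1 fell by 0.49 on the log2 scale (SE 0.08, adjusted p = 0.00365 by edgeR). Npm1 was called with each of the 4 libraries left out in turn (adjusted p by edgeR between 0.00142 and 0.0287).

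Nucleolin, encoded by Ncl (ENSMUSG00000026234, chr1:86344719-86359400), binds precursor ribosomal RNA and is among the most abundant nucleolar proteins. Ncl read 641 and 636 CPM in WT and 507 and 502 CPM in cRel-/- de novo Tregs. The replicates of a genotype differed far less than the genotypes did, and Ncl fell by 0.34 on the log2 scale (SE 0.07, adjusted p = 0.0119 by edgeR). Its adjusted p by edgeR passed 0.05 when a WT library was left out (0.0621 without replicate 1, 0.0528 without replicate 2), at fold changes of −0.33 and −0.34. In a fit of all 13 libraries that shares the wider pre-Treg spread, neither was called (adjusted p by edgeR = 0.445 for Npm1 and 0.433 for Ncl) at fold changes of −0.49 and −0.34. Mybbp1a, a nucleolar protein that binds the transcription factor Myb, read 313 and 297 CPM in WT and 248.7 and 256 CPM in cRel-/- de novo Tregs (log2 fold change −0.27, SE 0.07, adjusted p = 0.0533 by edgeR), just outside the threshold.

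**Figure D2:**
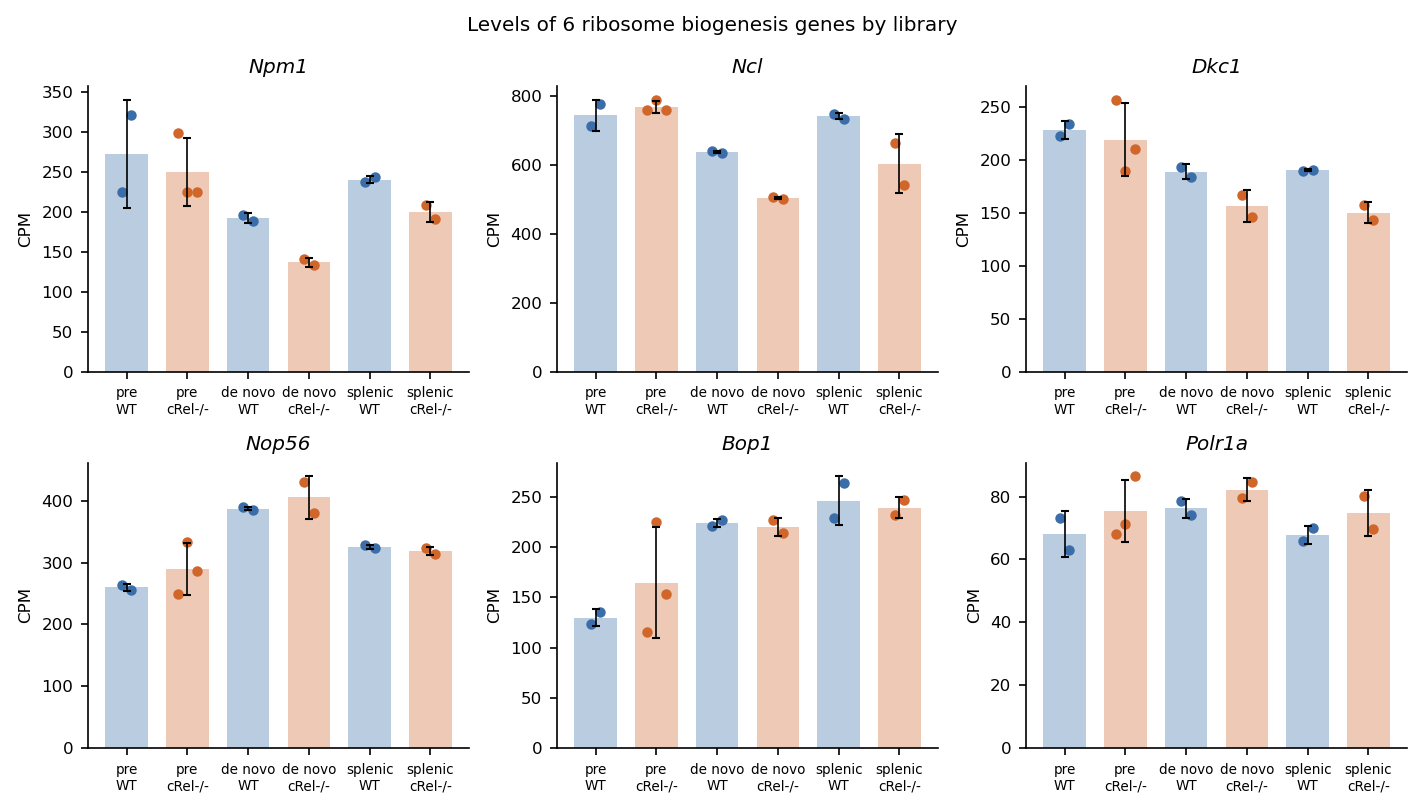
CPM of 6 members (vertical axes, from 0) in every library (points), with bars at group means and whiskers of 1 SD, WT in blue and cRel-/- in orange. Npm1 and Ncl are lower in both cRel-/- de novo libraries than in either WT library, while Polr1a is not.

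Other role groups showed smaller differences in de novo Tregs, with no further call. The box H/ACA group comprises Dkc1 (dyskerin, the pseudouridine synthase), its core partners Nhp2 and Gar1, and the snoRNP chaperone Nolc1. All 4 were below 0, between −0.27 for Dkc1 and −0.13 for Nolc1. Of the box C/D group, Nop58 was at −0.20, the methyltransferase Fbl (fibrillarin) at −0.15 and Nop56 at 0.07. Among the RNA polymerase I genes, the shared subunit Polr1c was at −0.27 and the second-largest subunit Polr1b at −0.26, while the largest subunit Polr1a was at 0.11, the highest of the 34. Polr1a read 78.5 and 74.2 CPM in WT and 79.7 and 84.7 CPM in cRel-/- de novo Tregs (adjusted p = 0.610 by edgeR), with no overlap but a difference near the spread. Small subunit factors had a median of −0.09 over 10 genes and large subunit factors −0.05 over 9 genes. Wdr74, a large subunit factor, was the next highest at 0.07 (78.7 and 79.7 CPM in WT, 88.6 and 77.3 CPM in cRel-/-, adjusted p = 0.794 by edgeR) and its groups overlapped.

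In splenic Tregs the box H/ACA group was again entirely below 0, but no member passed the test. Genes called there made up 0.612% (higher) and 0.758% (lower) of 12264, and the members counted 0 in either direction. At an unadjusted p under 0.05 there were 5 members. Where such a count, here or below, stands without the share of all genes at that threshold, it is not read as a result. DESeq2 and limma-voom also called 0 members, in fits that called 4.29% and 1.83% of all genes. Of the 34, 26 were below 0, with a median of −0.10 against 0.00 over all genes. That median was −0.15 without cRel-/- replicate 1 and −0.04 without replicate 2.

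Dkc1 had the lowest fold change in splenic Tregs. It read 190 and 191 CPM in WT and 157 and 143 CPM in cRel-/- splenic Tregs (log2 fold change −0.34, SE 0.10, adjusted p = 0.166 by edgeR). Its 2 genotypes did not overlap, as in de novo Tregs, where it read 194 and 184 against 167 and 146 CPM. Nolc1 read 163 and 167 CPM in WT and 146 and 123 CPM in cRel-/- splenic Tregs (−0.30, SE 0.12, adjusted p = 0.299 by edgeR). Nhp2 (−0.28) and Gar1 (−0.23) completed the group, whose set mean was 6.78 and 6.80 in WT and 6.52 and 6.47 in cRel-/-.

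Npm1 read 237 and 244 CPM in WT and 208 and 191 CPM in cRel-/- splenic Tregs (−0.27, SE 0.10, adjusted p = 0.263 by edgeR). Ncl read 747 and 735 CPM in WT and 664 and 544 CPM in cRel-/- (−0.29, SE 0.11, adjusted p = 0.275 by edgeR). Neither gene's groups overlapped, and for Ncl the gap between the cRel-/- libraries was wider than that from the nearer of them to WT. At the upper end, Rrp9, a component of the U3 snoRNP, read 116 and 115 CPM in WT and 123 and 138 CPM in cRel-/- (0.19, SE 0.11, adjusted p = 0.495 by edgeR), and Polr1a 65.8 and 69.9 against 80.0 and 69.7 CPM (0.14, SE 0.12, adjusted p = 0.655 by edgeR). All 9 large subunit factors were below 0 (median −0.10), against 4 of 10 small subunit factors (median 0.02).

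The splenic count changed when either cRel-/- library was left out. Without replicate 1, 13 members were called, 12 lower and Rrp9 higher, in a fit that called 11.4% of all 12567 genes lower and 8.58% higher. Those lower were Ddx21, Dkc1, Heatr1, Mybbp1a, Ncl, Nhp2, Nolc1, Nop58, Npm1, Rrp12, Tsr1 and Utp20. Without replicate 2, Dkc1 and Nhp2 were called lower and Utp20 higher, against 6.05% and 6.21% of genes. Utp20, a large scaffold of the small subunit processome, read 46.4 CPM in cRel-/- replicate 1 and 23.7 CPM in replicate 2, on either side of the WT libraries (35.1 and 33.8 CPM). These leave-one-out fits put 1 library against 2, which is assumed to vary as the WT pair does. Dkc1 and Nhp2 were lower in both such fits.

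**Figure D3:**
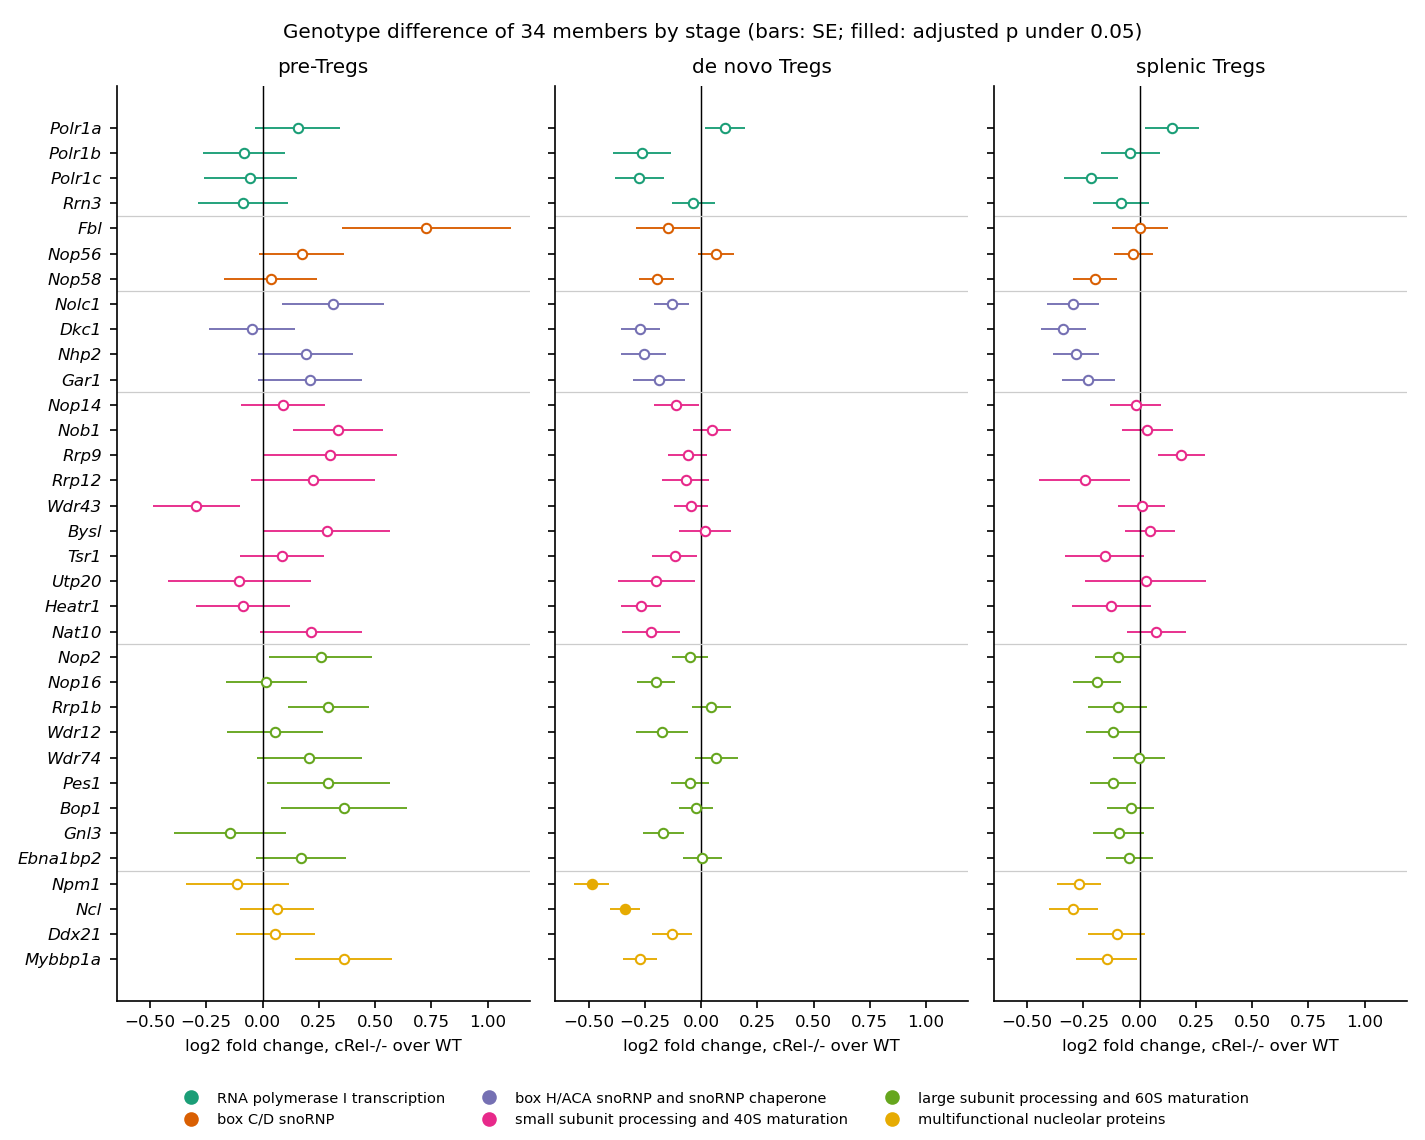
Log2 fold change of cRel-/- over WT (horizontal axis, bars of 1 SE) for the 34 members grouped by role, in the 3 stages, with filled points for an adjusted p under 0.05. Only Npm1 and Ncl in de novo Tregs are filled, 27 of 34 points lie below 0 there, and pre-Treg bars are the widest.

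A fit of the 8 de novo and splenic libraries with 1 genotype term, added after the single-stage results were seen, called 3 members lower and 0 higher, against 2.31% and 2.87% of 12532 genes. Npm1 fell by 0.37 on the log2 scale (SE 0.07, adjusted p = 0.0107 by edgeR), Ncl by 0.31 (SE 0.07, adjusted p = 0.0222 by edgeR) and Dkc1 by 0.30 (SE 0.06, adjusted p = 0.024 by edgeR). Nhp2 (−0.26, adjusted p = 0.0569 by edgeR) and Nop58 (−0.19, adjusted p = 0.069 by edgeR) lay just outside. Npm1 remained called with any of the 8 libraries left out, and it was the only member called without de novo WT replicate 1, de novo cRel-/- replicate 2, splenic WT replicate 1 or splenic WT replicate 2. Without splenic cRel-/- replicate 1 the members called were Dkc1, Heatr1, Mybbp1a, Ncl and Npm1. At the upper end were Polr1a (0.13) and Rrp9 (0.07), with no call. Of the 34, 22 were below 0 at both stages and 3 above 0 at both: Polr1a, Bysl, a small subunit factor, and Nob1, the nuclease that completes the small subunit RNA.

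Other gene lists were read in the same fits. The cytosolic ribosomal protein genes, the structural partners of these factors, fell in de novo cRel-/- Tregs for 24 of 81 tested, and rose for 0, with a median of −0.29. Their set mean was only 5.38 in WT de novo Tregs, against 6.54 for the members. Copies of ribosomal protein genes elsewhere in the genome were not searched for. Their counts, here and below, are uncertain where reads match several places. In splenic Tregs 0 of 81 were called by edgeR (7 at an unadjusted p under 0.05), the median was −0.10, and their set mean overlapped between genotypes (5.798 and 5.791 in WT, 5.63 and 5.796 in cRel-/-). Of 90 other ribosome biogenesis factors, 0 were called by edgeR at either stage (6 in de novo and 2 in splenic Tregs at an unadjusted p under 0.05), with medians of −0.05 at each. In the fit of both stages, Rcl1, a small subunit processing factor, was the sole one called (−0.28, SE 0.07, adjusted p = 0.0436 by edgeR). Myc itself was called by genotype at neither stage. It read 377 and 357 CPM in WT and 365 and 337 CPM in cRel-/- de novo Tregs (−0.06, SE 0.08, adjusted p = 0.749 by edgeR). In splenic Tregs Myc read 322 and 317 CPM in WT and 362 and 360 CPM in cRel-/- (0.17, SE 0.09, adjusted p = 0.414 by edgeR). The splenic Myc groups did not overlap, and the cRel-/- libraries were the higher ones. There the replicates of a genotype differed less than the genotypes did. Of 9 growth regulators tested (Myc and its partners and relatives), 0 were called by edgeR at either stage (1 in de novo and 2 in splenic Tregs at an unadjusted p under 0.05).

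Proliferation genes and markers of other cells moved with genotype beside these results, and their part in them was not tested. In splenic Tregs 13 of 30 proliferation genes fell and 0 rose, and their summed level was 2125 and 2298 CPM in WT, 1361 CPM in cRel-/- replicate 1 and 864 CPM in cRel-/- replicate 2, the library with the lowest set mean of its stage. In de novo Tregs, where Npm1 and Ncl fell, the summed proliferation level was 2245 and 1799 CPM in WT and 2170 and 2163 CPM in cRel-/-, and 1 of 30 genes rose. In pre-Tregs that sum was 4147 and 3755 CPM in WT and 5217, 5364.5 and 4777 CPM in cRel-/-, with no overlap. The 9 CD8 T and NK cell markers summed to 225 to 232 CPM in WT and 66.6 to 82.0 CPM in cRel-/- de novo Tregs (2 of 8 tested fell), and to 195 to 197 against 107 to 108 CPM in splenic Tregs (1 of 9 fell), with 0 of the 9 at 0. Of these, Cd8b1 overlapped between genotypes in de novo Tregs (33.6 and 28.5 against 30.3 and 26.4 CPM). In splenic Tregs it read 25.4 and 22.4 against 16.8 and 15.5 CPM. Cd8a read 4.75 and 4.13 against 2.98 and 1.55 CPM in de novo Tregs. The de novo sum thus differed mainly through other genes of the list. The 14 myeloid and dendritic markers summed to 167 to 170 CPM in WT and 135 to 157 CPM in cRel-/- de novo Tregs (0 of 11 called, 2 of the 14 at 0 in both genotypes), and to 196 to 235 against 145 to 172 CPM in splenic Tregs (0 of 13 called). The 7 B and plasma cell markers summed to 31.7 to 33.7 CPM in WT and 35.4 to 39.3 CPM in cRel-/- de novo Tregs (of 4 tested 1 rose and 1 fell), and to 41.0 to 51.4 against 62.0 to 96.4 CPM in splenic Tregs (1 of 6 rose). The 8 thymic stroma markers summed to 243 CPM in both WT and 326 to 330 CPM in cRel-/- de novo libraries (2 of 4 tested rose, and 3 and 2 of the 8 were at 0). In splenic Tregs the stroma markers summed to 233 to 257 CPM in WT and 282 to 311 CPM in cRel-/-. The 8 erythroid and platelet markers ran from 3.09 to 111 CPM in WT and from 0.630 to 0.992 CPM in cRel-/- de novo Tregs (2 of 3 tested fell, and 2 and 4 of the 8 were at 0).

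In pre-Tregs no member and no gene at all was called (0% in either direction of 14746 genes by edgeR, with 969 genes and 0 members at an unadjusted p under 0.05, and 88 genes but no member by DESeq2). Of the 34, 25 had a log2 fold change above 0, with a median of 0.16 against 0.03 over all genes. The highest was Fbl, at 12.7 and 12.8 CPM in WT and 11.96, 29.6 and 21.0 CPM in cRel-/- pre-Tregs (0.73, SE 0.38, adjusted p = 0.720 by edgeR). Bop1, a subunit with Pes1 and Wdr12 of the PeBoW complex that processes large subunit RNA, read 124 and 136 CPM in WT and 116, 225 and 153 CPM in cRel-/- (0.36, SE 0.28, adjusted p = 0.741 by edgeR). In both genes replicate 1 of the cRel-/- libraries was below WT and replicate 2 was the highest of all. The lowest were Wdr43, a small subunit processome component, at 210 and 183 CPM in WT and 181, 133 and 162 CPM in cRel-/- (−0.29, SE 0.19, adjusted p = 0.724 by edgeR), and Gnl3, the nucleolar GTPase nucleostemin, at 90.7 and 99.5 against 112, 66.0 and 76.9 CPM (−0.15, SE 0.25, adjusted p = 0.861 by edgeR). Without cRel-/- replicate 2 the median of the members stayed above 0 but was smaller, at 0.04. The pre-Treg test could find little. In counts simulated from each stage it found 1% of 1.3-fold and 21% of 2-fold changes, against 35% and 98% in de novo Tregs. The absence of calls in pre-Tregs is thus no sign that the members did not differ there.

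The genotype difference was not shown to differ between stages. The joint interaction test called 0.161% of 13058 genes and 0 members (0 members also at an unadjusted p under 0.05). DESeq2 and limma-voom called 0 members too, against 3.83% and 0.107% of genes. The smallest adjusted p of the joint test among the members was 0.510 by edgeR, for Mybbp1a. Of the 34, 32 had a lower fold change in de novo Tregs than in pre-Tregs. Across members this difference correlated with transcript GC content (Pearson r = −0.45, against −0.19 over all genes with a GC value). The part of GC content in that count was not tested, and the members share libraries. With 1 genotype term over all 13 libraries, 0 members were called, against 0.314% of genes called higher and 0.536% lower (3 members by edgeR at an unadjusted p under 0.05). By DESeq2 and limma-voom the members counted 0 too, against 2.5% and 1.46% of genes. Npm1 was the lowest in that fit by edgeR (−0.29) and Dkc1 the next (−0.21), and Fbl (0.20) and Rrp9 (0.14) the highest.

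Between thymic stages, the members split by name rather than moving as a set. In WT, 7 rose and 3 fell from pre-Tregs to de novo Tregs, against 16.1% of 13058 genes called higher and 14.7% called lower. The share of members was 10 of 34 and thus near that background. The median of the members was 0.15 against −0.00 over all genes. On plain library totals, without TMM factors, all genes shifted by −0.16 and the members' median became −0.00, which left the members 0.16 above all genes on either scale. The balance of calls turned with that scale: 4 members rose (Bop1, Nop56, Pes1 and Rrp9) and 6 fell (Gnl3, Ncl, Npm1, Rrn3, Utp20 and Wdr12), against 11.6% of genes called higher and 21.3% lower.

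Large subunit factors and the U3 component were among those that rose. Rrp9 read 56.6 and 54.2 CPM in WT pre-Tregs and 109 and 115 CPM in WT de novo Tregs, the largest rise of the set (log2 fold change 1.01, SE 0.24, adjusted p = 0.00906 by edgeR). Pes1 read 72.7 and 68.5 against 126 and 122 CPM (0.81, SE 0.22, adjusted p = 0.0158 by edgeR). Its complex partner Bop1 rose likewise, to 221 and 227 CPM from the 124 and 136 CPM given above (0.79, SE 0.23, adjusted p = 0.0219 by edgeR). The third PeBoW subunit went the other way: Wdr12 read 55.2 and 63.9 CPM in pre-Tregs and 44.2 and 38.5 CPM in de novo Tregs (−0.53, SE 0.17, adjusted p = 0.0361 by edgeR). In each of these 4 genes the stages did not overlap.

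Nop56 rose from 263 and 256 CPM to 389 and 385 CPM (0.58, SE 0.14, adjusted p = 0.0112 by edgeR). Nop2, an RNA methyltransferase of the large subunit, rose by 0.59, Mybbp1a by 0.56 and Rrp1b, a large subunit factor, by 0.41. Falls were seen for Rrn3, the factor that recruits RNA polymerase I to its promoter, at 99.4 and 83.7 against 64.7 and 60.7 CPM (−0.55, SE 0.17, adjusted p = 0.0267 by edgeR). Utp20 fell from 43.9 CPM in both pre-Treg libraries to 22.7 and 19.4 CPM (−1.06, SE 0.35, adjusted p = 0.0366 by edgeR). Among the 7 members with an E-box, Mybbp1a, Nop2 and Pes1 rose, Rrn3 and Utp20 fell, and Tsr1 and Wdr43 were not called. A relation of motif to fold change was not tested. Npm1, at 225 and 321 against 197 and 188 CPM, missed the threshold (−0.50, SE 0.18, adjusted p = 0.0502 by edgeR), with its pre-Treg libraries far apart.

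In cRel-/- cells, 2 members rose and 10 fell over the same step, against 15.4% of genes called higher and 17% called lower. Both rises were lost on plain library totals (0 rose and 14 fell, against 10.4% and 26.8% of genes) and with replicate number as a block (0 rose and 4 fell). Rrp9 read 46.8, 94.4 and 60.9 CPM in pre-Tregs and 111 and 103 CPM in de novo Tregs (0.66, SE 0.21, adjusted p = 0.031 by edgeR). Pes1, the next highest, did not pass (0.49, adjusted p = 0.0731 by edgeR). Nop56 (0.48) and Rrp9 rose, and Rrn3, Utp20 and Wdr12 fell, as they did in WT, which made 5 genes called in both genotypes with the same sign. The other falls in cRel-/- were Npm1, Ncl, Dkc1, Nop58, Gar1, Ddx21 and Gnl3. Npm1 read 299, 225 and 225 CPM in cRel-/- pre-Tregs and 141 and 133 CPM in de novo Tregs (−0.86, SE 0.17, adjusted p = 0.0023 by edgeR). Ncl read 759, 790 and 761 CPM against 507 and 502 CPM (−0.61, SE 0.12, adjusted p = 0.0019 by edgeR). For both genes every de novo library was below every pre-Treg library. Passing in one genotype and not in the other is no difference between them: that difference is the interaction above, and none of the 34 passed it.

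The stage calls moved widely with the libraries used. In WT the count was 10 with all libraries, 1 without either WT pre-Treg library, 1 without WT de novo replicate 1 and 0 without replicate 2, and 16 or 17 without cRel-/- pre-Treg replicate 1 or 2. In cRel-/- it was 12, and 18 without pre-Treg replicate 2, 7 without pre-Treg replicate 3, 3 without de novo replicate 1 and 2 without replicate 2. With replicate number as a block 4 members rose and 2 fell in WT, and the falls left in cRel-/- were Gar1, Ncl, Npm1 and Wdr12. The share of all genes called moved too: 9.41 to 13.1% in the WT fits that kept 0 or 1 member, 40.3% and 46.4% in those with 16 and 17, and 50.3% in the cRel-/- fit with 18. Npm1 and Ncl were called in cRel-/- with any of the 13 libraries left out (highest adjusted p by edgeR = 0.0332 and 0.0286).

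These stage differences went with base composition. Transcript GC content ranged from 40.4% for Wdr12 to 59.8% for Rrp9, and across the 34 members it correlated with the stage fold change at Pearson r = 0.73 in WT and 0.61 in cRel-/- (all genes with a GC value: 0.29 and 0.11). Of the 17 members with lower GC, 12 were below 0 in WT, against 2 of the 17 with higher GC, a split at the median of 50.9%. In cRel-/- the counts were close, 11 and 9 of 17, and the medians of the lower and higher GC members were −0.39 and −0.03, against −0.21 and 0.27 in WT. The members' stage fold change also correlated with length, at Pearson r = −0.414 in WT and −0.345 in cRel-/- (all genes: −0.149 and −0.0412). Length and GC content were not separated. Members share libraries and genes are no independent replicates, so these values are a description. With the per-library trend on GC taken off (an alternative chosen after seeing the data), Rrp9 rose by 0.41, Nop56 by 0.54 and Pes1 by 0.79 in WT and stayed called, and Wdr12 was at 0.06 and no longer called. Calls were also lost for Bop1 (0.25, from 0.79), Nop2 (0.25, from 0.59), Mybbp1a (0.30, from 0.56), Rrp1b (0.22, from 0.41) and Rrn3 (−0.32, from −0.55). Utp20 kept most of its fold change (−0.86, from −1.06) and lay just outside the threshold (adjusted p = 0.0588 by edgeR). Nop14 and Ebna1bp2 rose and Gar1 and Polr1c fell in that fit, which called 13.6% of all genes higher and 12% lower. In cRel-/-, Npm1 (−0.65), Ncl (−0.43), Nop56 (0.46), Rrp9 (0.39), Wdr12 (−0.48), Utp20 (−1.02), Rrn3 (−0.36), Dkc1 (−0.29) and Gar1 (−0.77) stayed called, Nop58, Ddx21 and Gnl3 were lost, and Nhp2 and Polr1c (lower) and Wdr43 (higher) were added.

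**Figure D4:**
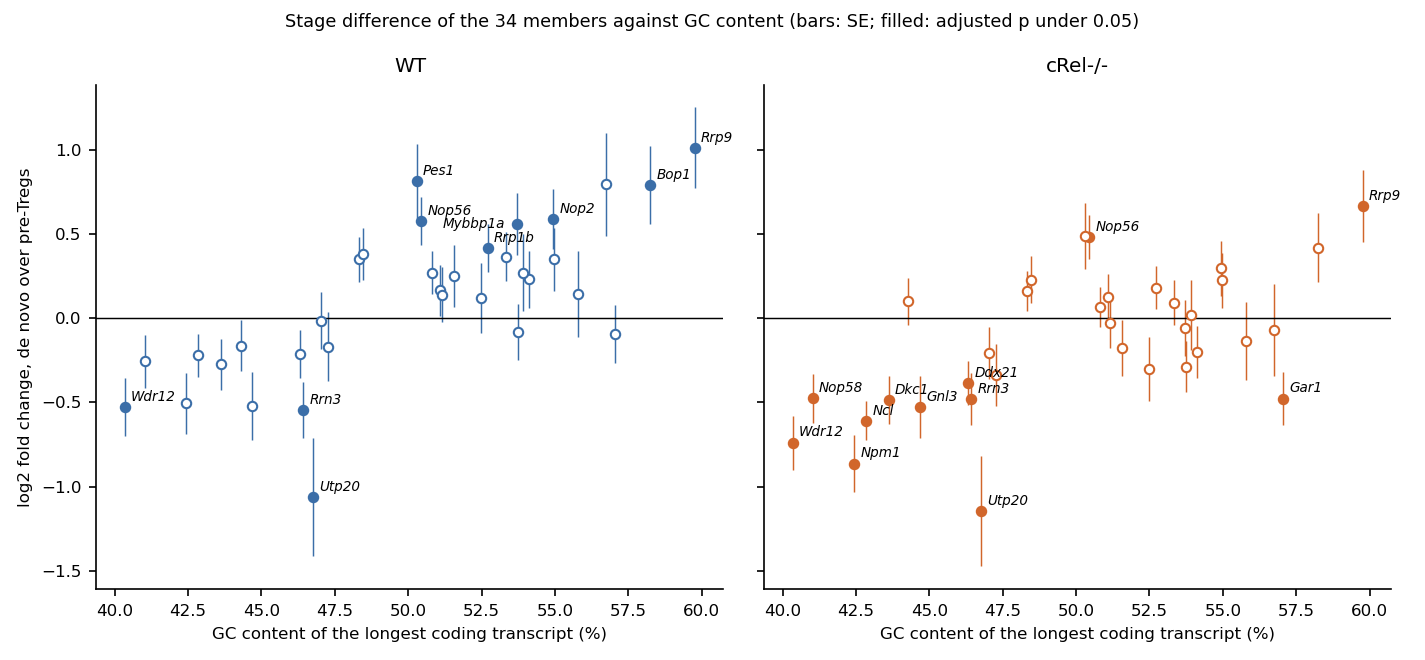
Log2 fold change of de novo Tregs over pre-Tregs (vertical axis, bars of 1 SE) against GC content of the longest protein-coding transcript (horizontal axis, percent) for the 34 members, WT left and cRel-/- right, with filled and named points for an adjusted p under 0.05. Wdr12, of the lowest GC, lies below 0 in both genotypes and Rrp9, of the highest GC, lies highest in both, while Nop56 and Pes1, near the middle, lie above 0.

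The same trend set the outlying pre-Treg library apart. As a mean deviation from the 13-library average, members of higher GC minus members of lower GC stood at 0.28 in cRel-/- pre-Treg replicate 2, and at −0.47 and −0.17 in replicates 1 and 3 and −0.32 and −0.38 in WT. Across the members r with GC was 0.70 for the pre-Treg genotype fold change, 0.37 for the de novo one and 0.32 for the splenic one. Over all genes with a GC value r was 0.39 in pre-Tregs, 0.00 in de novo and 0.02 in splenic Tregs, so the trend in pre-Tregs was not limited to the members. The pre-Treg value is from a fit of the 11854 tested genes that all 3 tables list, of which 99% had a GC value, since the pre-Treg table lists further genes and only 79.8% of all genes tested there had one. With the GC trend taken off Npm1 (−0.48), Ncl (−0.33) and Mybbp1a (−0.28) were called lower in de novo Tregs. That fit called 3.82% of all genes lower and 3.09% higher.

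From de novo to splenic Tregs a single member passed the test in either genotype, Ddx21, a DEAD-box RNA helicase that links RNA polymerase I transcription to processing. In WT, genes called higher made up 3.5% and lower 3.95%, and in cRel-/- 6.48% and 6.39%. Ddx21 (ENSMUSG00000020075, chr10:62580248-62602298) read 73.7 and 73.4 CPM in de novo and 115 and 118 CPM in splenic WT Tregs (0.66, SE 0.14, adjusted p = 0.0137 by edgeR). In cRel-/- it read 65.2 and 69.0 against 120 and 96.5 CPM (0.69, SE 0.14, adjusted p = 0.00727 by edgeR). All splenic libraries were above all de novo ones, though the WT call was lost with any of the 4 WT libraries of the contrast left out (adjusted p by edgeR between 0.0792 and 0.111) and with replicate number as a block (0.0708). The cRel-/- call was lost without de novo replicate 1 or splenic replicate 1.

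Npm1 was also higher in splenic than in de novo cRel-/- Tregs (208 and 191 against 141 and 133 CPM) without passing the test (0.54, SE 0.18, adjusted p = 0.0706 by edgeR). At the lower end, Nop56 read 389 and 385 CPM in de novo and 328 and 323 CPM in splenic WT Tregs (−0.25, SE 0.14, adjusted p = 0.344 by edgeR). Utp20 was the highest, at 22.7 and 19.4 against 35.1 and 33.8 CPM in WT (0.71, SE 0.34, adjusted p = 0.258 by edgeR), and also in cRel-/- (0.94, adjusted p = 0.102 by edgeR). In cRel-/- the lowest were Nop56 (−0.35, adjusted p = 0.142 by edgeR) and Rrn3 (−0.20, adjusted p = 0.494 by edgeR). The 4 RNA polymerase I genes were all below 0 in WT (between −0.17 and −0.06), but 2 of 4 in cRel-/- (between −0.20 and 0.16). The 4 multifunctional nucleolar genes were above 0 in both genotypes.

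Among other ribosome biogenesis factors, 12 of 90 rose and 12 fell from pre-Tregs to de novo Tregs in WT, with a median of −0.00, under the shares of all genes called there (16.1% and 14.7%). Pno1, which joins the maturing small subunit, fell by 1.00 (adjusted p = 0.00195 by edgeR), Wdr36, a small subunit processome protein, by 0.87 and the GTPase Gnl3l by 0.74, while Nle1, a large subunit assembly factor, rose by 0.91 (adjusted p = 0.00388 by edgeR). In cRel-/-, 6 rose and 7 fell, also under the shares of all genes (15.4% and 17%), again with Pno1 (−1.10), Wdr36 (−0.86) and Gnl3l (−0.82) among the falls, and Sbds, which helps release the large subunit for translation, at 0.66. Myc rose over this step in both genotypes, from 115 and 128 CPM to 377 and 357 CPM in WT (1.59, SE 0.14, adjusted p = 1.55e-05 by edgeR) and from 141, 165 and 133 CPM to 365 and 337 CPM in cRel-/- (1.26, SE 0.12, adjusted p = 1.15e-05 by edgeR). Proliferation genes fell, 23 of 30 in WT and 29 of 30 in cRel-/-, and 25 cytosolic ribosomal protein genes rose and 6 fell in WT, against 0 and 21 in cRel-/-, of 81. From de novo to splenic Tregs, 0 of the 90 factors were called by edgeR in WT (9 at an unadjusted p under 0.05), and in cRel-/- Znhit6, an assembly factor of box C/D snoRNPs (0.67), Pdcd11 (0.76) and Urb1 (0.72) were among 4 that rose and the kinase Riok1 (−0.46) fell.

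Per length, in CPM per kilobase of deposited gene length, the members lay high among the genes tested: their median level lay between percentiles 75.7 and 77.9 of 13058 genes in the 6 groups, and 30 or 31 of 34 were above the median gene. Nhp2 (85.6 to 112 CPM per kb over the 6 group means), Npm1 (51.5 to 102), Nop56 (63.4 to 98.8) and Bop1 (52.4 to 99.4) held the first place in at least 1 group, and their ranges overlapped. Lowest were Utp20 (2.08 to 4.97), Wdr12 (3.07 to 5.12), Fbl (3.03 to 6.24) and Polr1a (5.72 to 6.92). Gene length counts every annotated exon, so a long untranslated end as in Wdr12 lowers the value. For Fbl that length is 4209 bases, while its longest coding transcript has 1197, which lowers its value too. Over the 13 libraries the highest CPM was 1.37 times the lowest for Polr1a, 2.96 times for Rrp9 and 3.48 times for Utp20.

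Members resembled each other in pairs. Over the 6 group means of log2 CPM, Npm1 was most like Ncl (Pearson r = 0.97), Dkc1 most like Nop58 (0.98), Pes1 most like Nop2 (0.997) and Bop1 most like Ebna1bp2 (0.997), a large subunit assembly factor. After group means were taken off, over the 13 libraries, Nop56 was most like Pes1 (0.95), Bop1 most like Nop2 (0.965) and Npm1 most like Wdr12 (0.79). The points share libraries and the GC trend above, so these values describe likeness only.

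Reads of some members can be shared with other loci. Transcripts of 8 other genes, all pseudogenes, matched the longest Npm1 transcript at 90% identity or more over at least 200 bases, with 6 for Nop56, 2 for Pes1 and 1 for Ncl, so counts of Npm1 and Nop56 are uncertain where reads match several places. Wdr12 matched 49 other genes, the longest Vmn1r88 over 1377 bases, Nop58 matched 38 over at most 223 bases, and Fbl matched 3, of which Gm6211 over 992 bases. Counts of these genes are uncertain in the same way. Exons of Tsr1 overlap those of Srr on the opposite strand over 32.3% of their length, and those of Bysl overlap Ccnd3, also on the opposite strand, over 9.4%. Whether counting used the strand is not given in the sources used here, so reads of these pairs may not be told apart. On the same strand, other annotated genes share 8.0% of the exon length of Nop56, 2.1% of that of Ncl and 0.8% of that of Nop58.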

How the data were processed

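The deposited values are whole-number counts for each gene, as the authors' counting left them, unnormalized. Per the submitters' processing notes, STAR 2.5.2, Picard 2.9.0, featureCounts, Subread 1.5.2, FastQC, MultiQC, limma and the genome build GRCm38 were used. The sources used here give neither annotation release nor strandedness. From these counts, edgeR 4.0.16 in R 4.3.3 was run with TMM factors, filterByExpr (min.count 10, min.total.count 15), the quasi-likelihood test and Benjamini-Hochberg adjustment over all genes, per stage (14746, 11855 and 12264 genes) and over all 13 libraries (13058 genes, 6 group means, or stage plus genotype). Levels are CPM with log2 prior count 2. The deposited table of pre-Tregs also gives gene length in bases, used for CPM per kb. Alternatives were DESeq2 1.42.0, limma-voom (3.58.1), other scalings, no filter, left-out libraries, a replicate block and, added later, a GC offset and halved counts of the even-numbered library. Replicate numbers are those of the titles and carry no stated pairing. The descriptions number the cRel-/- pre-Tregs otherwise (title 1 is numbered 2, title 3 is numbered 1 and title 2 has no number), so the block rests on the title numbers there. Scripts were tested on simulated data. A total of 0 per-sample columns were left out. GC content, copies (blastn 2.17.0) and overlaps were computed on GENCODE transcripts of GRCm38. The members, lists and tests were chosen with earlier results of these data known. Named in full are called members, those with the 2 highest and 2 lowest fold changes per comparison, and Npm1, Ncl, Fbl, Polr1a, Nop56, Bop1 and Myc; other factors are up to 4 called per comparison.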

Additional observations from a re-analysis of the deposited data

How the results depend on the processing

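The number of members called in de novo Tregs (2) was 1 to 5 with a library left out and 0 in the fit of 6 group means; in splenic Tregs (0) it was 0 to 13, and over both Foxp3-expressing stages (3) it was 1 to 5, with 6 by DESeq2 and 5 with the GC offset. From pre-Tregs to de novo Tregs the counts were 0 to 17 in WT (10; 6 with the replicate block) and 2 to 18 in cRel-/- (12; 4 with the replicate block). From de novo to splenic Tregs they were 0 to 1 in WT (1; 0 with the replicate block) and 0 to 4 in cRel-/- (1; 2 by DESeq2 and 2 without the filter, 3 with the GC offset). The members' median log2 fold change in pre-Tregs was 0.0442 to 0.183 with a library left out (0.164), and in splenic Tregs −0.149 to −0.0424 (−0.0969); from pre-Tregs to de novo Tregs it became −0.00276 in WT on library totals (0.154), and in cRel-/- (−0.102) −0.291 on library totals, −0.209 with the GC offset and −0.248 to 0.0196 with a library left out. With the median level of the members in place of the set mean, the genotype differences were −0.00643 (de novo) and 0.0205 (splenic). Those medians rest on the few genes of middle level. Signs turned for Gnl3 in pre-Tregs (−0.41 to 0.00486 with a library left out, 0.00299 with the GC offset), Wdr74 in de novo Tregs (−0.0353 to 0.17 with a library left out) and Wdr12 from pre-Tregs to de novo Tregs in WT (0.0638 with the GC offset). The causes were not tested. The share of all genes called moved with these settings too. In de novo Tregs it was 0.766% in the fit of 6 group means. Over both Foxp3-expressing stages it was 8.98% by DESeq2 and 5.44% with the GC offset. A change in the count of members is thus not particular to them. Same-numbered libraries did not deviate together (correlations of −0.18, −0.02 and −0.11 by stage), so the numbers are not taken as pairs. Crossing them in splenic Tregs left the count of members at 0, but that fit called 6.55% of all genes. With the numbers as given for a block, 2.94% of genes were called there. Halving the even counts changed no count of members by over 1.5 times.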
